A study of Mus musculus with 12 samples.

Results

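The genes described here are 42 mouse genes of the cell cycle and of mitosis, measured in whole lung. They were taken by gene symbol, with older array names matched through their accessions. The rule used no measured value, but the list was chosen with earlier results of these data known. All 42 had a probe on the array, and 41 had a probe well above the background of the scanner on at least 4 of the 12 arrays, among 19823 genes that met the same filter. The exception was Ttk, a spindle checkpoint kinase, whose only probe was well above background on 0 arrays. Of the 41, 39 were well above background on all 12 arrays. Kif2c was so on 11 arrays (4 of WT room air, 3 of WT smoke and 4 of Rora mutant smoke) and Cdc25c on 7 (2, 2 and 3).

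RNA was measured with 1 array per mouse in 3 groups of 4: wild-type (WT) mice that breathed room air, WT mice exposed to cigarette smoke, and Rora mutant mice exposed to the same smoke. Rora encodes a nuclear receptor, the retinoic acid receptor-related orphan receptor alpha. All are labelled as males of the C57Bl/6 strain aged 12 weeks. A smoking machine fed a steel chamber on 5 days a week for 4 months, which is longer than 12 weeks, so the stated age is not that at the end of the exposure. The allele of the mutants is not stated in the labels, and mutant mice in room air were not analysed here, so an effect of genotype alone cannot be told apart from a changed response to smoke. The groups are also unlike in a way the labels do not state: Xist, the RNA of the inactive X chromosome, stood at 4.04 ± 0.07 (SD, n = 4) in room air, at -5.39 ± 2.08 in smoke-exposed WT and at -4.61 ± 1.26 in smoke-exposed mutants. The Y-linked Ddx3y rose clear of background on 4 of 4 arrays in either smoke group but on 0 of 4 in room air. By these transcripts the room air mice read as female and both smoke groups as male, which goes against the label of male for all. Sex read in this way runs with the exposure on all 12 arrays, so it cannot be told apart from smoke in any difference from room air. Rora itself averaged 1.10 ± 0.04 (room air), 1.18 ± 0.04 (WT smoke) and -1.01 ± 0.10 (mutant smoke) (n = 4 each; limma adjusted p = 1.16e-09 between the smoke groups). All 8 markers of alveolar type 2 cells and all 7 of endothelium met the filter, as did all 6 of alveolar type 1 cells.

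Levels are log2 units relative to the 75th percentile of the array, and a change is a difference of such levels between group means. Changes were tested with limma over all 19823 genes, and a gene is said to have risen or fallen where its Benjamini-Hochberg adjusted p was under 0.05. The labels call the arrays of a group biological replicates. The 12 arrays lay on 3 slides of 4, each slide with arrays of all 3 groups. In RNA of a whole organ, fewer cycling cells and less RNA per cycling cell cannot be told apart.

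A dividing cell passes through a growth phase, DNA replication, a further gap and mitosis, and each step is driven by cyclins bound to cyclin-dependent kinases. Genes for replication are switched on by E2F factors as cells enter S phase. Genes for mitosis come later, when the MuvB complex with B-Myb and FoxM1 acts through an element called the cell cycle genes homology region, or CHR, often next to CCAAT boxes bound by NF-Y. The adult lung divides slowly at rest, and its cycling cells are spread over epithelium, endothelium, stroma and immune cells.

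The promoters of the mitosis members and of the replication members differed along these roles. RefSeq (GRCm38.p6) held promoter sequences of 33 of the 41 genes, each with 250 bases before and 50 after the start site, in a table of 32851 such promoters. They were searched on both strands for the CHR (TTTGAA or TTCGAA), the CCAAT box (CCAAT) and the E2F site (TTTGGCGC, TTTCGCGC, TTCCCGCC or TTTCCCGC). Some of these words overlap: the E2F words share letters with one another, and in Cdca8 a CHR runs into a CCAAT box. A CHR word was in the promoters of 14 of 17 mitosis genes (82.4%) and of 2 of 10 replication and nucleotide genes. Over the 12382 genes that met the filter and had a promoter the share was 17%, and over all promoters 19.2%. An E2F word was in 0 of the 17 and 6 of the 10, against 6.7% of the 12382 genes and 3.49% of all promoters. The CCAAT box was in 14 of the 17 and 8 of the 10, against 42.1% and 37.4%. Members are counted as genes, and Mcm7, with 2 promoters, counts once where either held the word. The 6 cyclins, kinases, phosphatases and transcription factors with a promoter did not divide in this way. A CHR word was in 2 of the 6, an E2F word in 2 and a CCAAT box in 4, and Cdk1 held each of these motifs. Such matches describe letters and are no evidence of binding.

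**Figure D1:**
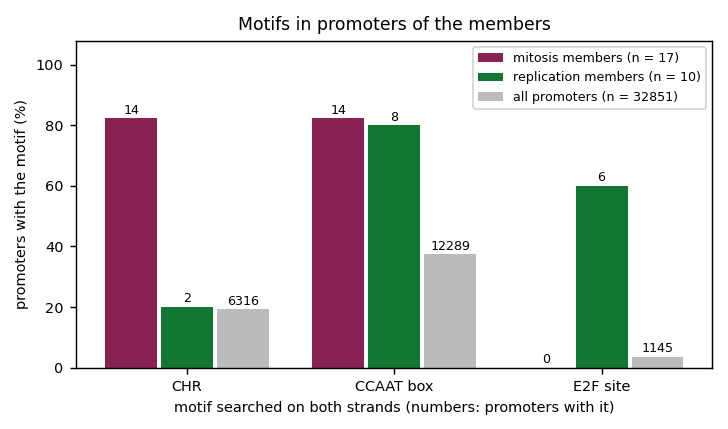
Percent with each motif word on either strand in 300-base RefSeq promoters, for 17 mitosis genes, 10 replication and nucleotide genes and all 32851 promoters. Numbers over the bars count genes for the members and promoters for the rest. The 6 other members with a promoter are not drawn. The CHR was in promoters of 14 mitosis genes and 2 replication genes, the E2F site in 0 and 6, and the CCAAT box in 14 and 8.

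Shown are the promoter stretches of the members with the smallest p for smoke against room air that the table held, from 170 bases before to 30 after the start site, 5′ to 3′ on the strand of the gene, with the matched letters in capitals. A match on the other strand appears as its reverse complement, as TTCAAA in Kif2c or ATTGG for CCAAT. All coordinates are GRCm38.p6.
Kif2c, chr4:117178743-117178942, minus strand: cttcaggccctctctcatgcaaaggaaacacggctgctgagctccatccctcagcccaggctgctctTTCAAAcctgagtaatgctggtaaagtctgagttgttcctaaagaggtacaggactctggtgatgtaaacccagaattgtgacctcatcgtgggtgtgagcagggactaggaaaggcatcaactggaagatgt
Bub1, chr2:127831830-127832029, minus strand: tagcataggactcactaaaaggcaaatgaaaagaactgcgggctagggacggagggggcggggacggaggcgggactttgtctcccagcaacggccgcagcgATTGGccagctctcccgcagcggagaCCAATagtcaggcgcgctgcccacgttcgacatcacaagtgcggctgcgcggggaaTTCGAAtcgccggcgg
Bub1b, chr2:118598041-118598240, plus strand: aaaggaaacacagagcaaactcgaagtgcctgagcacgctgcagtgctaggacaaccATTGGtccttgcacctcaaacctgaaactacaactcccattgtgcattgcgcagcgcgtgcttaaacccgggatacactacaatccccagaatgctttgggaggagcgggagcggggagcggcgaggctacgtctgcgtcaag
Mki67, chr7:135716350-135716549, minus strand: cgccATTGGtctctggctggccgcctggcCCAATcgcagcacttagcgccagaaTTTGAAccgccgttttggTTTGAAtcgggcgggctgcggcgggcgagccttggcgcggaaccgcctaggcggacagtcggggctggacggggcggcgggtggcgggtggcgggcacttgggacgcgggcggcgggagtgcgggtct
Birc5, chr11:117849067-117849266, plus strand: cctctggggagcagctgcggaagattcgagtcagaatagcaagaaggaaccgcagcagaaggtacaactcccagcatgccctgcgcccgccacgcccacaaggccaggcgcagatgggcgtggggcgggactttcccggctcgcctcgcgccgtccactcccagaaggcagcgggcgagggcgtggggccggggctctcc
Cdca8, chr4:124936888-124937087, minus strand: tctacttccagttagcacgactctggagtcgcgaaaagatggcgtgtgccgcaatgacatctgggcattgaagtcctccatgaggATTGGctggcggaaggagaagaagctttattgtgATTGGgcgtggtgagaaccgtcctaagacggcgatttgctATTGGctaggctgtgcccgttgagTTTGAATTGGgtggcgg
Ccnb1, chr13:100786457-100786656, minus strand: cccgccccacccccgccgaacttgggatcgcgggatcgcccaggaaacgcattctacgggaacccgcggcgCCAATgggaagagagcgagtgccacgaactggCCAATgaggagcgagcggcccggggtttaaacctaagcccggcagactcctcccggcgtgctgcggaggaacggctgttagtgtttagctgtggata
Bub1 and Cdca8 hold a CHR 15 and 14 bases past the start, with CCAAT boxes before it. Mki67 has a pair of CHR words, at -116 and -98. The CHR words of Bub1b lie outside the stretch shown, at -188 and 41. Neither Ccnb1 nor Birc5 has any of the CHR words in the 300 bases.

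A pair of replication promoters is shown for contrast, picked after their motifs had been seen. Mcm5 and Mcm6 encode subunits of the ring helicase that unwinds DNA at the fork.
Mcm5, chr8:75109339-75109538, plus strand: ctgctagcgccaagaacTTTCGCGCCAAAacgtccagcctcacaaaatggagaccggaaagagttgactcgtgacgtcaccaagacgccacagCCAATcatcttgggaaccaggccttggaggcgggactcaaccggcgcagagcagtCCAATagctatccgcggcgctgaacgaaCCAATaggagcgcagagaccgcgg
Mcm6, chr1:128359676-128359875, minus strand: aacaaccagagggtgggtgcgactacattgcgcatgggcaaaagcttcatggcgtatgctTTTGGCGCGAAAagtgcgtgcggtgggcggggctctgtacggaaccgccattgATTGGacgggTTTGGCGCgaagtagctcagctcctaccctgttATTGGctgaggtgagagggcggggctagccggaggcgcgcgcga
Both carry overlapping E2F words on opposite strands as well as CCAAT boxes, and no CHR word.

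Comparing WT smoke with WT room air asks how the lung differed after long-term smoke. By Xist and Y-linked RNA these groups also differ in sex. Of the 41 genes 8 fell and 0 rose, where 2.55% of all genes tested fell and 2.31% rose. Those that fell were Kif2c, Ccnb1, Birc5, Bub1, Kif20a, Bub1b, Cdca8 and Mki67. All but Ccnb1, which drives entry into mitosis, belong to the roles in mitosis below. At an unadjusted p under 0.05, 19 were lower and 0 higher (10.4% and 7.90% of all genes). The median change of the 41 was -0.24, against -0.01 over all genes, and 37 of the 41 changes were below 0 (53.2% of all genes). The groups did not overlap for 12 members, all lower in smoke, where 6.91% of all genes were lower and 5.98% higher without overlap. The 8 calls depended on single arrays: they numbered 0 without WT room air replicate 4, 1 without WT room air replicate 1, 2 without replicate 3, and 2, 1, 1 and 4 without WT smoke replicates 1, 2, 3 and 4. Leaving out Rora mutant smoke replicate 1 or 2 gave 5 each. With the slide as a block in the fit, 1 gene remained, Kif2c. The median change stayed between -0.30 and -0.22 whichever array was left out.

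**Figure D2:**
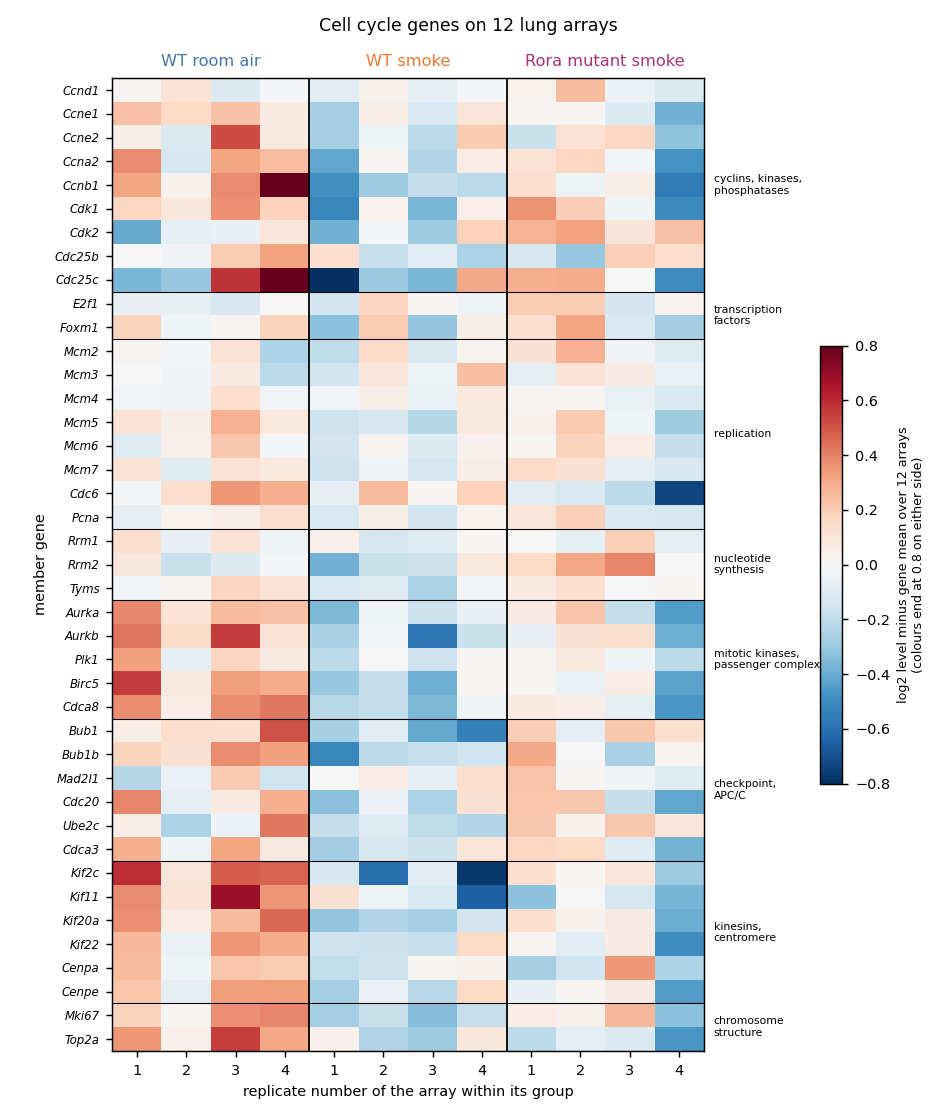
Log2 level of each of the 41 genes (rows, by role) on each of the 12 arrays (columns, by group and replicate number), as the difference from the mean of that gene over the 12 arrays; red is higher and blue lower. WT smoke replicate 1 and mutant smoke replicate 4 are blue over most genes, and the room air columns 1, 3 and 4 are red over most mitosis genes, in the lower rows.

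By role, most falls were among genes of mitosis. The 19 measured genes of mitosis had a median change of -0.41, 18 of 19 changes were below 0 and 7 fell. The 11 genes of replication and nucleotide synthesis had a median of -0.09 and 0 fell, and the 11 cyclins, kinases, phosphatases and transcription factors of cell cycle control had a median of -0.22 with 1 fall. As a median over the 19 mitosis genes, relative to the mean of each gene over all arrays, the room air arrays stood at 0.33, 0.04, 0.33 and 0.31, the WT smoke arrays at -0.26, -0.13, -0.20 and -0.04, and the mutant smoke arrays at 0.07, 0.02, 0.06 and -0.38. The room air and WT smoke arrays did not overlap on this measure. Of the mutant arrays, 3 lay above all WT smoke arrays and replicate 4 below all other arrays. For the 11 replication and nucleotide genes the same medians were -0.01, -0.01, 0.12 and -0.02 in room air, -0.15, 0.02, -0.12 and 0.05 in WT smoke, and 0.03, 0.13, -0.03 and -0.12 in mutant smoke. Here the 3 groups overlapped. These medians describe the arrays, and the difference between the roles was not tested.

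**Figure D3:**
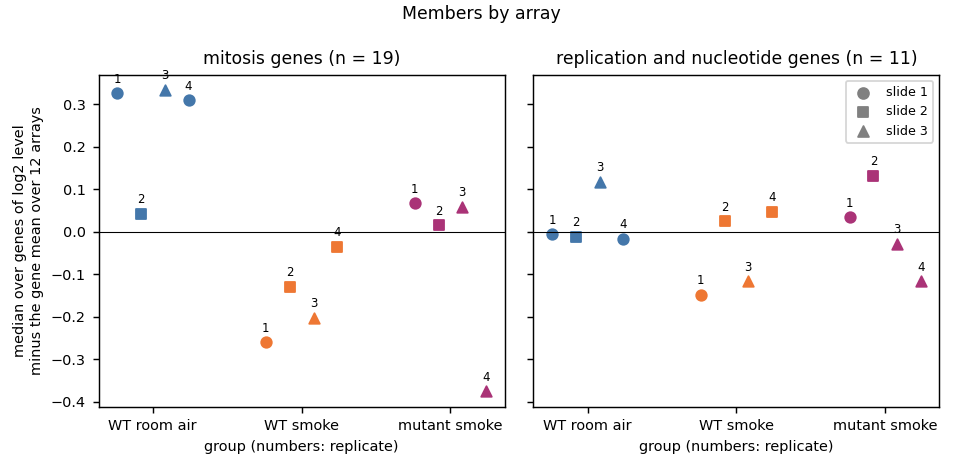
Median over 19 mitosis genes (left) and 11 replication and nucleotide genes (right) of the log2 level minus the mean of each gene over 12 arrays, for each array; numbers are replicates, and the marker shape is the slide. On the left room air spans 0.04 to 0.33 and WT smoke -0.26 to -0.04, while on the right the groups overlap.

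Cyclins and their kinases open the account by role. Ccnb1 encodes cyclin B1, which activates Cdk1 to start mitosis. Its levels were -3.77, -4.05, -3.71 and -3.21 in room air, -4.58, -4.37, -4.28 and -4.30 in WT smoke, and -3.95, -4.13, -4.03 and -4.64 in mutant smoke. Every WT smoke array lay below every room air array, while mutant replicate 4 was lowest of all 12. Ccnb1 fell by 0.70 ± 0.18 (SE; limma adjusted p = 0.0499), 1.62-fold, at the edge of the threshold, and the call ended in 19 of 23 alternative settings with values of -0.82 to -0.52. The other probes of Ccnb1, in other stretches of the transcript, gave differences of -0.60 and -0.62.

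Cdk1, the mitotic kinase itself, changed by -0.41 (95% interval -0.80 to -0.01) and Ccna2, cyclin A2 of S phase and early mitosis, by -0.34 (-0.70 to 0.01), neither past the threshold (limma adjusted p = 0.253 and 0.287). The levels of Ccna2 were -1.16, -1.68, -1.22 and -1.29 in room air and -1.95, -1.53, -1.77 and -1.48 in WT smoke, so room air replicate 2 fell among the smoke arrays. Cdc25c, a phosphatase that activates Cdk1, stood at -6.87, -6.81, -5.93 and -5.29 in room air, at -7.35, -6.80, -6.87 and -6.20 in WT smoke, and at -6.22, -6.21, -6.50 and -7.01 in mutant smoke. Only 7 of its 12 arrays were well above background, the groups overlapped, and its change of -0.58 had an interval from -1.35 to 0.19. Cdc25b, the related phosphatase, was at -0.22 (-0.49 to 0.05).

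Genes of entry into the cycle showed smaller differences. Ccnd1, cyclin D1 of early growth phase, changed by -0.04 (-0.21 to 0.13), Ccne1, cyclin E1 of S phase entry, by -0.24 (-0.46 to -0.01; limma adjusted p = 0.24) and Ccne2 by -0.21 (-0.56 to 0.13). Cdk2, the partner of cyclin E, changed by -0.02 (-0.30 to 0.27). The transcription factors E2f1 and Foxm1 changed by 0.06 (-0.13 to 0.26) and -0.18 (-0.50 to 0.14).

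Among genes of DNA replication 0 of 8 passed, and 1, Mcm5, had an unadjusted p under 0.05. Mcm2 to Mcm7 encode the replicative helicase, and their changes ran from -0.24 for Mcm5 to 0.08 for Mcm3, with 95% intervals that together span -0.47 to 0.28. Pcna, the sliding clamp of the polymerases, changed by -0.09 (-0.27 to 0.10), and Cdc6, which loads the helicase, by -0.09 (-0.40 to 0.22). Mcm6 shows the pattern: its levels were 2.62, 2.76, 2.94 and 2.71 in room air, 2.58, 2.75, 2.62 and 2.76 in WT smoke, and 2.74, 2.90, 2.78 and 2.53 in mutant smoke. The 3 groups overlapped throughout. In the synthesis of deoxynucleotides, Tyms (thymidylate synthase) changed by -0.20 (-0.33 to -0.06; limma adjusted p = 0.111), while Rrm1 and Rrm2, the subunits of ribonucleotide reductase, were at -0.07 (-0.24 to 0.09) and -0.11 (-0.35 to 0.13).

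Mitotic kinases and the chromosomal passenger complex, which corrects faulty attachments of chromosomes to the spindle, all had changes below 0, and 2 of them fell. Birc5, survivin, a subunit of that complex, stood at 0.80, 0.31, 0.57 and 0.54 in room air, at -0.07, 0.04, -0.16 and 0.25 in WT smoke, and at 0.26, 0.18, 0.29 and -0.19 in mutant smoke. Smoke and room air arrays did not overlap, and WT smoke replicate 4 came nearest to room air replicate 2. Birc5 fell by 0.54 ± 0.13 (limma adjusted p = 0.0401), 1.45-fold, and the call ended in 12 of 23 alternatives.

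Cdca8, borealin, a further subunit, was at -0.25, -0.57, -0.25 and -0.20 in room air, at -0.85, -0.82, -0.98 and -0.66 in WT smoke, and at -0.55, -0.57, -0.70 and -1.09 in mutant smoke. It fell by 0.51 ± 0.13 (limma adjusted p = 0.0419), without overlap; the call ended in 12 of 23 alternatives, and a dimmer probe gave -0.48. Aurkb, the kinase of the complex, was at -3.99, -4.27, -3.86 and -4.30 in room air, at -4.68, -4.44, -5.00 and -4.60 in WT smoke, and at -4.49, -4.30, -4.29 and -4.81 in mutant smoke. Its groups did not overlap either, yet the change of -0.57 ± 0.15 missed the threshold (limma adjusted p = 0.0522) and passed in 3 of 23 alternatives. Aurka and Plk1, kinases of spindle poles and mitotic entry, changed by -0.40 (-0.69 to -0.11) and -0.21 (-0.42 to -0.01).

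The spindle checkpoint holds cells until all chromosomes are attached. Bub1, a checkpoint kinase at the kinetochore, was at -3.91, -3.82, -3.83 and -3.45 in room air, at -4.22, -4.05, -4.37 and -4.50 in WT smoke, and at -3.76, -4.03, -3.75 and -3.83 in mutant smoke. All WT smoke arrays were below all others. Bub1 fell by 0.53 ± 0.12 (limma adjusted p = 0.0263), 1.45-fold, with -0.55, -0.46 and -0.54 within slides 1, 2 and 3, and the call ended in 9 of 23 alternatives.

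Bub1b, BubR1, which restrains the anaphase-promoting complex, was at -2.29, -2.34, -2.09 and -2.14 in room air, at -2.99, -2.68, -2.65 and -2.63 in WT smoke, and at -2.16, -2.46, -2.73 and -2.45 in mutant smoke. It fell by 0.52 ± 0.12 (limma adjusted p = 0.0295), 1.43-fold and without overlap, and the call ended in 10 of 23 alternatives. Other genes of this role did not pass. Mad2l1, Mad2, which binds the Cdc20 that the checkpoint inhibits, changed by 0.09 (-0.13 to 0.30). Cdc20, which activates the anaphase-promoting complex, changed by -0.30 (-0.65 to 0.05), Ube2c, its ubiquitin-conjugating enzyme, by -0.23 (-0.48 to 0.02), and Cdca3, a trigger of mitotic entry, by -0.28 (-0.57 to 0.00).

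Kinesins, the motors of the spindle, held the largest fall. Kif2c, which takes microtubules apart at centromeres, was at -5.28, -5.78, -5.39 and -5.40 in room air, at -6.01, -6.48, -5.96 and -6.65 in WT smoke, and at -5.75, -5.86, -5.78 and -6.17 in mutant smoke. Every WT smoke array was below every room air array, with WT smoke replicates 2 and 4 lowest. Kif2c fell by 0.81 ± 0.17 (limma adjusted p = 0.0191), 1.75-fold, and by -0.66, -0.78 and -0.57 within slides 1, 2 and 3.

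The call of Kif2c ended in 4 of 22 alternatives: normexp background correction (-0.38, limma adjusted p = 0.884), and without WT room air replicate 1 (-0.75, adjusted p = 0.0522), room air replicate 4 (-0.79, adjusted p = 0.0543) or WT smoke replicate 2 (-0.74, adjusted p = 0.0574). The gene lay near the background, and 1 WT smoke array was not well above it. Its probe lies at chr4:116658102-116658161 of mm8, the build of the array files.

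Kif20a, a kinesin of cell division at cytokinesis, was at -0.27, -0.57, -0.38 and -0.17 in room air, at -0.95, -0.87, -0.90 and -0.78 in WT smoke, and at -0.51, -0.60, -0.56 and -1.03 in mutant smoke. It fell by 0.52 ± 0.12 (limma adjusted p = 0.0264) without overlap, its other probe gave -0.52, and the call ended in 10 of 23 alternatives. Kif11, the motor that pushes spindle poles apart, was at -5.06, -5.33, -4.75 and -5.09 in room air, at -5.32, -5.48, -5.57 and -6.10 in WT smoke, and at -5.77, -5.44, -5.58 and -5.81 in mutant smoke. WT smoke replicate 1 crossed room air replicate 2, and the change of -0.56 ± 0.17 did not pass (limma adjusted p = 0.086). Kif22, Cenpa, the histone of centromeres, and Cenpe, a kinetochore motor, changed by -0.30 (-0.60 to -0.01), -0.24 (-0.52 to 0.04) and -0.30 (SE 0.14; limma adjusted p = 0.266).

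Mki67, Ki-67, the coat protein of mitotic chromosomes used to stain dividing cells, was at 0.40, 0.25, 0.59 and 0.61 in room air, at -0.05, 0.04, -0.13 and 0.04 in WT smoke, and at 0.28, 0.26, 0.48 and -0.11 in mutant smoke. WT smoke and room air did not overlap, and 3 of the 4 mutant arrays lay above all WT smoke arrays. Mki67 fell by 0.49 ± 0.12 (limma adjusted p = 0.0396), 1.40-fold; a further probe gave -0.51, and the call ended in 13 of 23 alternatives. Top2a, the topoisomerase that untangles chromosomes, was at -3.72, -4.04, -3.53 and -3.77 in room air, at -4.04, -4.32, -4.37 and -3.99 in WT smoke, and at -4.29, -4.16, -4.20 and -4.54 in mutant smoke. Its change with smoke, -0.41 ± 0.13, did not pass (limma adjusted p = 0.0933), and room air replicate 2 lay among the smoke arrays.

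**Figure D4:**
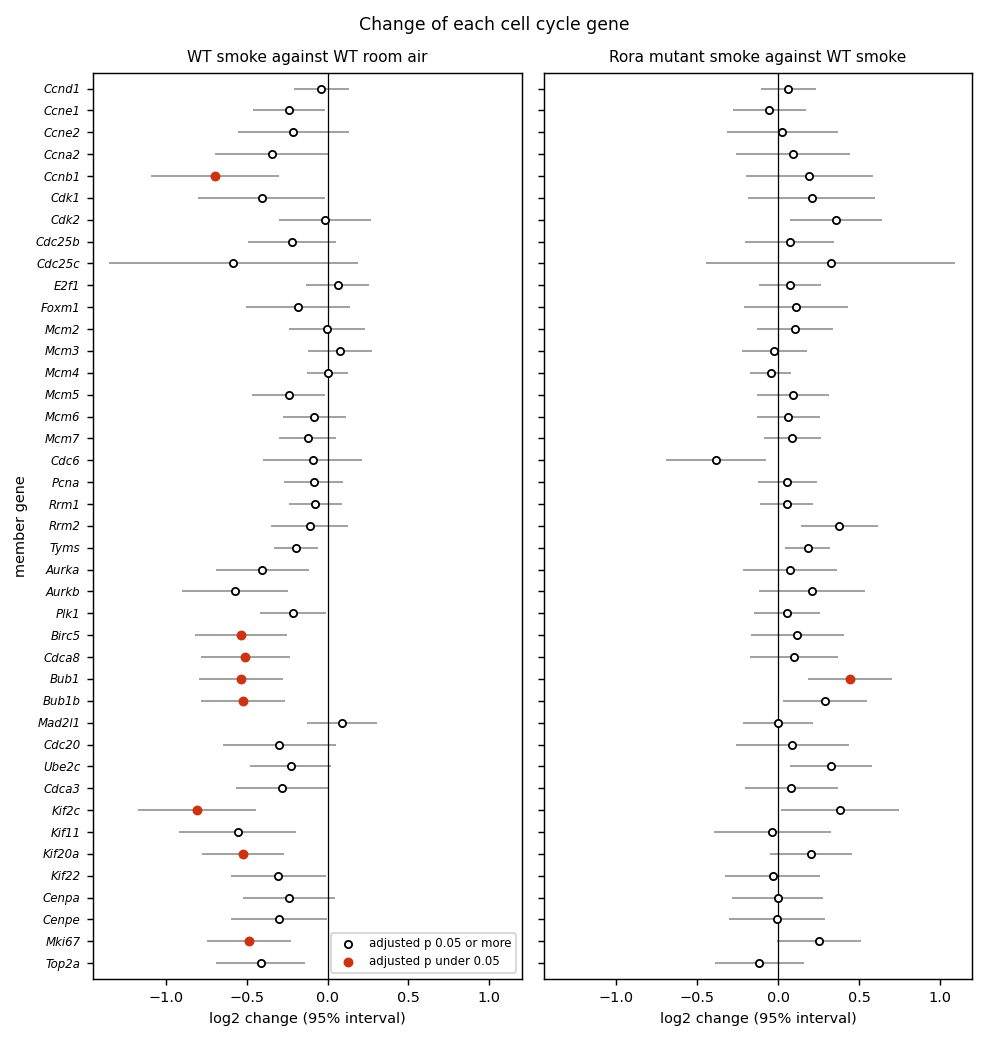
Log2 change of each of the 41 genes with its 95% interval, for WT smoke against WT room air (left) and Rora mutant smoke against WT smoke (right); filled points had a limma adjusted p under 0.05 over all genes. On the left 8 genes are filled, all below 0, and the widest interval is that of Cdc25c (-1.35 to 0.19); on the right 1 gene is filled, Bub1 at 0.44.

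The slides differed in how much they showed. Within slides 1 and 3 the median change of the 41 genes with smoke was -0.43 on either slide, with 40 and 39 genes below 0. Within slide 2 it was 0.01, with 20 below 0. Slide 2 paired WT room air replicate 2, which stood below the mean of its group for 35 of 41 genes, with WT smoke replicates 2 and 4, which stood above the mean of theirs for 32 and 35. Each slide held 1 mouse of at least 1 of the groups, so slide and mouse cannot be told apart here. All 8 genes that fell had changes below 0 within all 3 slides, as did 11 of the others. For the 8 this follows from groups that did not overlap, so it is no separate check.

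Comparing Rora mutant smoke with WT smoke asks what the mutation changed under the same exposure. Of the 41 genes 1 rose, Bub1, and 0 fell, where 2.48% of all genes rose and 3.56% fell. The share of members that rose (2.44%) is near that of all genes and is no result about them. The median change was 0.09, against 0.0021 over all genes, and 10 of 41 were below 0 (49.4% of all genes). At an unadjusted p under 0.05, 7 were higher and 1 lower (9.52% and 11.6% of all genes). The groups did not overlap for 3 genes higher in the mutant (6.55% of all genes), Bub1, Ube2c and Tyms, and for 1 lower (6.85%), Cdc6. The share of members higher without overlap is again near that of all genes. For Tyms, another probe also gave 0.18, but a dim one went the other way (-0.27).

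Bub1 was 0.44 ± 0.12 higher in mutant smoke (limma adjusted p = 0.0494), 1.36-fold, with its arrays as given above: all 4 mutant arrays above all 4 WT smoke arrays, and 0.46, 0.25 and 0.58 within the slides. The call lay at the threshold and ended in 15 of 23 alternatives, with values of 0.37 to 0.62 over all of them. It ended without any of the mutant replicates 1 (0.42), 3 (0.41) and 4 (0.44), WT smoke replicates 1 (0.46), 3 (0.42) and 4 (0.37), and room air replicates 1, 2 and 3 (0.44 each). Without room air replicate 4, or with arrays weighted, 2 genes passed.

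Other differences did not pass. Rrm2, whose levels were -2.65, -2.92, -2.85 and -2.76 in room air, -3.13, -2.92, -2.92 and -2.66 in WT smoke and -2.59, -2.43, -2.35 and -2.74 in mutant smoke, was 0.38 ± 0.11 higher in the mutant (limma adjusted p = 0.0646). WT smoke replicate 4 lay among the mutant arrays. Kif2c differed by 0.38 (0.02 to 0.75; limma adjusted p = 0.211), and its mutant arrays overlapped both other groups. Cdk2 was at -5.70, -5.37, -5.35 and -5.20 in room air, -5.68, -5.31, -5.58 and -5.11 in WT smoke, and -5.02, -4.97, -5.19 and -5.06 in mutant smoke, a difference of 0.36 ± 0.13 (limma adjusted p = 0.137).

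Ube2c was at -1.63, -1.93, -1.72 and -1.26 in room air, at -1.87, -1.78, -1.88 and -1.92 in WT smoke, and at -1.46, -1.64, -1.46 and -1.58 in mutant smoke. It was 0.33 ± 0.12 higher in the mutant without overlap (limma adjusted p = 0.126). Cdc6 went the other way: its levels were -3.53, -3.39, -3.18 and -3.24 in room air, -3.59, -3.27, -3.51 and -3.34 in WT smoke and -3.61, -3.64, -3.73 and -4.26 in mutant smoke. All mutant arrays were below all WT arrays, mutant replicate 4 furthest, with a difference of -0.38 ± 0.14 from WT smoke (limma adjusted p = 0.134).

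**Figure D5:**
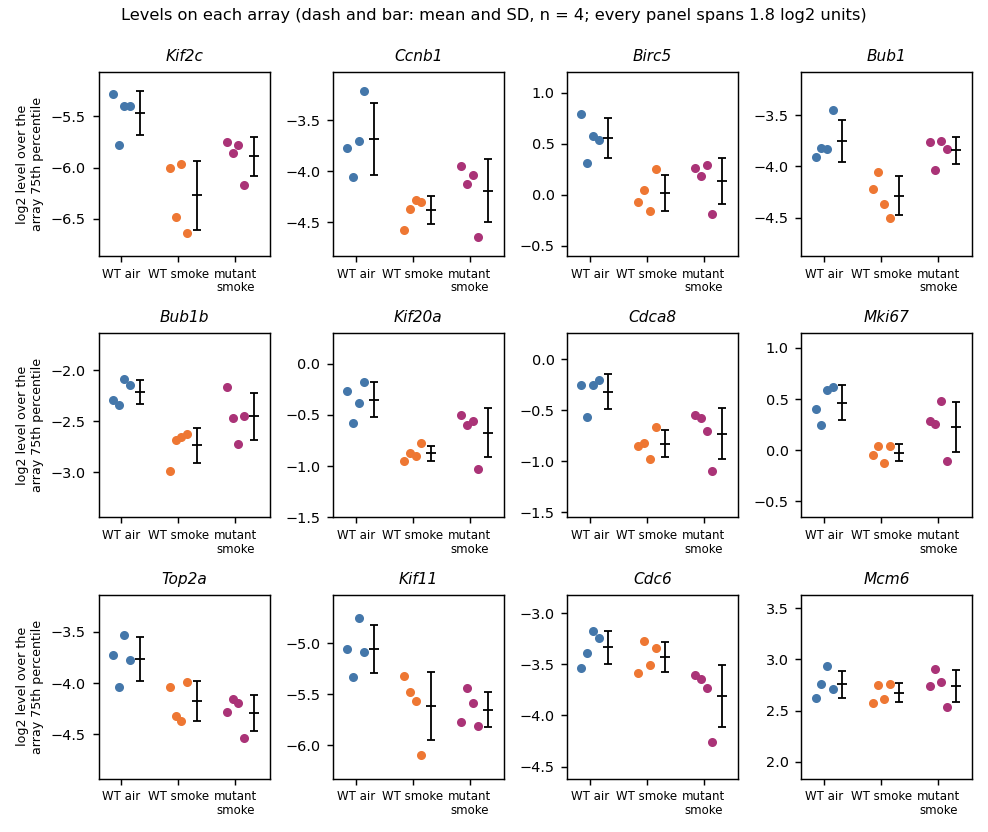
Log2 level of 12 genes on each array, with the mean and SD of each group (n = 4) beside the points; every panel spans 1.8 log2 units. WT smoke lies below room air without overlap in the top and middle rows, Top2a, Kif11 and Cdc6 are lowest on average in mutant smoke, and the groups overlap for Mcm6.

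Comparing Rora mutant smoke with WT room air combines genotype, exposure and the sex read from Xist and Y-linked RNA. It shares its control arrays with the first comparison and its mutant arrays with the second. Of the 41 genes 5 fell and 0 rose, where 10.0% of all genes fell and 6.67% rose; the share among the members, near that of all genes, is no result about them. The median change was -0.20, against -0.01 over all genes, and 33 of 41 were below 0 (51.5% of all genes). At an unadjusted p under 0.05, 13 were lower and 2 higher (17.2% and 13.6% of all genes). The groups did not overlap for 5 lower and 1 higher member (11.7% and 9.30% of all genes). The 5 calls numbered 1 without WT room air replicate 3 or 4 or without mutant replicate 4, 2 without room air replicate 1 or WT smoke replicate 3, and 3 without mutant replicate 1 or WT smoke replicate 1 or 2.

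Top2a fell by 0.53 ± 0.13 (limma adjusted p = 0.0154), 1.44-fold, and all 4 mutant arrays were below all room air arrays. The call held in 22 of 23 alternatives, slide block included, and ended with normexp background correction, where the value was 0.049. A dimmer probe of Top2a, well above background on 8 arrays, gave -1.20. Kif11 fell by 0.59 ± 0.17 (limma adjusted p = 0.031) and Cdc6 by 0.48 ± 0.14 (limma adjusted p = 0.0379), both without overlap; their calls ended in 10 and 13 of 23 alternatives, and normexp gave 0.17 and 0.0005. The other probe of Cdc6 gave -0.63. Birc5 and Cdca8 fell by 0.42 ± 0.13 and 0.41 ± 0.13 (limma adjusted p = 0.0488 and 0.0441), and their calls ended in 15 and 14 of 23 alternatives. Of genes with the largest differences, Ccnb1 (-0.50) and Kif2c (-0.42) did not pass (limma adjusted p = 0.0796 and 0.107). For Tyms the probes disagreed: 2 gave -0.01 and a dim one gave -0.55.

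Within groups, the members moved together from mouse to mouse. After the group means were taken out, the mean correlation between pairs of members was 0.387 over 12 arrays with 9 residual degrees of freedom, against 0.268 among 122 other cell cycle genes and 0.00967 among 19736 genes with a value on every array. Of 820 pairs, 84.8% were above 0. The genes closest to the mean of the other members were Ccna2 (0.951), Cenpe (0.935), Cdca8 (0.931) and Cdk1 (0.906). Bub1 (-0.08), Kif2c (0.07), Kif11 (0.11) and Cdc25b (-0.41) did not follow it, so Bub1 and Kif2c, which passed for smoke, were among those that least shared the variation between mice. All points come from the same 12 arrays, whose amplitude and slide they share, and the values are descriptions.

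Single mice stood apart in this way. Rora mutant smoke replicate 4 lay below the mean of its group for 38 of 41 genes, with a median deviation of -0.25. WT smoke replicates 1 and 3 lay below theirs for 34 genes each, and mutant replicate 2 above for 34. Without mutant replicate 4 the median change of the members from WT smoke was 0.18 rather than 0.09, and from room air -0.10 rather than -0.20.

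Genes outside the list were ranked by likeness. The 8 genes most like the mean of the members over the 12 arrays, again with the group means taken out, were Nuf2 (r = 0.994), Ccnb2 (0.949), Sgo1 (0.947), Ncapg (0.938), Pbk (0.938), Cgas (0.937), Shcbp1 (0.934) and Zfp41 (0.928), of 14890 genes ranked. Nuf2, a kinetochore protein, fell in smoke by 0.54 ± 0.14 (limma adjusted p = 0.0476).

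A longer list of 122 measured cell cycle genes, of 128 listed, gave the surroundings. In smoke against room air 7 fell (5.74%, against 2.55% of all genes) and 1 rose (0.82%, against 2.31%), with a median of -0.12 against -0.01 over all genes. The 62 other mitosis genes had a median of -0.19 and 6 falls, 35 other S phase genes -0.10 with 1 fall and 1 rise, and 6 inhibitors of cyclin-dependent kinases 0.07 with no call. The falls with the smallest p were Spc24, a kinetochore subunit (-0.60 ± 0.10, limma adjusted p = 0.00439), Ccnf, cyclin F (-0.53 ± 0.11, adjusted p = 0.0227), and Racgap1, of the cytokinetic spindle (-0.33 ± 0.07, adjusted p = 0.0283). Their calls ended in 1, 6 and 12 of 23 alternatives.

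The rise was that of Gmnn. It encodes geminin, which keeps DNA from being licensed for replication again, and it stood at 2.41 ± 0.03 (SD, n = 4) in room air, at 3.22 ± 0.13 in WT smoke and at 3.00 ± 0.04 in mutant smoke. The smoke arrays were all far above the room air arrays, with mutant arrays below all WT smoke arrays. Gmnn rose by 0.81 ± 0.06 (limma adjusted p = 3.2e-05), and the call held in 23 of 23 alternatives; a single probe measured it.

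Between the smoke groups 4 of the 122 rose (3.28%, against 2.48% of all genes) and 1 fell (0.82%, against 3.56%), with a median of 0.06; the share that rose was near that of all genes. Cdkn1a, the inhibitor p21 that halts the cycle, was at -0.66, -0.71, -0.82 and -0.71 in room air, at -0.57, -0.54, -0.43 and -0.42 in WT smoke, and at -0.11, -0.01, -0.18 and 0.21 in mutant smoke. It rose by 0.47 ± 0.08 in the mutant (limma adjusted p = 0.00718), and all mutant arrays were above all others. Spc24 (0.48 ± 0.10, adjusted p = 0.0162) and E2f4, an E2F of resting cells (0.36 ± 0.09, adjusted p = 0.0458), rose as well, and Nek2, a centrosome kinase, fell by 0.33 ± 0.07 (limma adjusted p = 0.0232). The calls of Cdkn1a and Spc24 ended in 1 of 23 alternatives each, that of Nek2 in 5 and that of E2f4 in 16, the slide block and 11 of 12 fits without 1 array among them. Against room air, 4 rose and 9 fell in mutant smoke (3.28% and 7.38%), below the 6.67% and 10.0% of all genes, with the smallest p for Gmnn (0.59), Cdkn1a (0.70), Nek2 (-0.63) and Smc2, a condensin subunit (-0.73); other probes of Smc2 gave -0.01 and -0.46.

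Markers of other cell types were set beside these changes. The summed signal of 7 goblet cell markers, in units of the 75th percentile of the array, was 11.6 to 38.5 in room air, 2.66 to 4.52 in WT smoke and 1.78 to 2.21 in mutant smoke, and 6 of 7 fell in WT smoke. That of 10 T cell markers was 4.89 to 8.20, 3.97 to 5.36 and 3.64 to 5.94. For smoke 0 of 10 were called, with all 10 changes below 0 and a median change of -0.25. Of 6 plasma cell markers 1 fell and 5 had changes below 0 (14.2 to 18.7 in room air, 13.7 to 15.6 in WT smoke). Of 8 alveolar type 2 markers 3 fell and 7 had changes below 0 (915.7 to 1113 and 743.4 to 1197). Of 7 alveolar macrophage markers 5 rose in mutant smoke against WT smoke (127.7 to 195.8 against 93.7 to 104.2). For smoke against room air 0 of 7 endothelial markers (median -0.02, 4 below 0) and 0 of 7 of fibroblasts (-0.24, 6 below 0) passed. Of the markers of alveolar type 1 cells 0 of 6 (0.15, 6 above 0) and of B cells 0 of 8 (0.27, 8 above 0) passed.

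Of 5 thymocyte markers, Rag1, Rag2 and Ptcra did not meet the filter and Dntt and Cd1d1 did. Dntt, which adds bases at the joints of antigen receptor genes, was at -3.76, -2.72, -3.69 and 0.80 in room air, at -4.05, -4.06, -4.15 and -4.04 in WT smoke, and at -4.42, -4.69, -3.50 and -4.69 in mutant smoke. Room air replicate 4 was far above all other arrays, and it also had the highest sum of T cell markers. The change of Dntt, -1.73 in WT smoke and -1.98 in mutant smoke against room air, did not pass (limma adjusted p = 0.282 and 0.119). Cd1d1 went the other way: against room air it changed by 0.0042 in WT smoke (limma adjusted p = 0.983) and rose by 0.22 in mutant smoke (limma adjusted p = 0.0315). Without room air replicate 4 the median change of the members in WT smoke was -0.26, and 0 genes passed. The part of these cells in the changes of the cell cycle genes was not tested.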

How the data were processed

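Whole lung RNA was hybridised to single-colour Agilent 4x44K mouse arrays, 1 per mouse. Scanning used Agilent Feature Extraction 9.5.3.1, per the submitters' processing notes and the file headers. The processed signal in each scanner file is an intensity on a linear scale, background-subtracted and not normalized between arrays, per the file headers. The raw means and local backgrounds are deposited as intensities too, and the scanner's flags as other values, 0 or 1. The value table of the authors is deposited as log2 intensity with a common median of 6.79 on every array and correlated with the processed signal at 0.9995 or more on each array; it was taken as quantile-normalized and served as an alternative.

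Spots (43379 that were no controls) were averaged to 41174 probes, without spots flagged as outliers. Each processed signal was divided by the 75th percentile of its array and put on the log2 scale. Probes had to be well above background on at least 4 of 12 arrays, with a value on 3 or more arrays per group, which left 30189, and the brightest kept probe over all arrays stood for its gene. A mean per group was fitted to 12 arrays with limma 3.58.1 in R 4.3.3 (two-sided, adjusted over 19823 genes; tables read with the R package data.table, version 1.17.8). The fit was tested on simulated data. Between 70.1% and 74.8% of the spots of an array exceeded background, and precision is limited by the number of arrays.

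The members and lists were chosen with earlier results of these data known, so lists have counts and medians and no test of their own. Described in full are members that passed in at least 1 comparison or were among the 6 largest changes of one; of the other cell cycle genes, the 4 with the smallest p in each comparison and the 8 genes most like the members' mean; further genes were named after their values were seen. Alternatives were normexp background correction with an offset of 50, quantile normalization, the authors' table, other probe filters, the mean of all probes, 2 groups only, slide or replicate number as a block, array weights, no sex-linked genes, and each array left out. Symbols and promoters came from RefSeq. Python 3.11.15 (pandas 2.3.3, scipy 1.17.1) did the remaining work, and matplotlib 3.10.9 made the plots.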

Additional observations from a re-analysis of the deposited data

Results flagged for a closer look

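In 6 of 123 sets of 4 arrays (41 genes in 3 groups), 1 array lay far from the other 3 by Dixon's criterion, which chance alone meets in about 1 of 20 sets. In WT room air these were Mcm4 on replicate 3 (2.53, others 2.36 to 2.37), Mcm7 on replicate 2 (1.53, others 1.71 to 1.74) and Cdca8 on replicate 2 (-0.57, others -0.25 to -0.20). In WT smoke they were Bub1b on replicate 1 (-2.99, others -2.68 to -2.63) and Kif22 on replicate 4 (-0.52, others -0.86 to -0.84). In Rora mutant smoke it was Cenpa on replicate 3 (-2.60, others -3.21 to -3.11). Cdca8 and Bub1b fell in smoke. Without WT room air replicate 2, Cdca8 changed by -0.59 and still passed (limma adjusted p = 0.0314). Without WT smoke replicate 1, Bub1b changed by -0.44 and no longer passed (limma adjusted p = 0.0653).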

How the results depend on the processing

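Over 23 alternatives the median change of the 41 members kept its sign for WT smoke against room air (-0.30 to -0.22) and for mutant against WT smoke (0.02 to 0.24), but turned from -0.20 to 0.0020 with normexp for mutant smoke against room air, and many calls ended. For WT smoke against room air (8 calls), 0 remained with normexp background correction, 1 without a filter on dim probes, 1 with the slide as a block and 1 with a replicate block; leaving out 1 array gave 0 to 9. For mutant smoke against WT smoke (1 call), normexp, no filter, the mean of all probes, the slide block and the replicate block gave 0, array weights 2, and leaving out 1 array 0 to 2. For mutant smoke against room air (5 calls), normexp gave 0, no filter 1, the slide block 1, the arrays of the 2 groups alone 2, the replicate block 3, array weights 3, and leaving out 1 array 1 to 6. With normexp the median of the members was -0.28 for WT smoke against room air and 0.24 for mutant against WT smoke. The medians of all genes moved to -0.07 (WT smoke against room air), 0.10 (mutant against WT smoke) and 0.08 (mutant against room air). Calls over all genes under this setting fell to 40 higher and 13 lower for smoke. There Cdc6 (0.0005), Kif11 (0.17), Top2a (0.049) and Ccnf (0.17) changed sign in mutant smoke against room air; the cause was not tested. Arrays with the same replicate number correlated at -0.10 to 0.22 after group means were removed (4 of 12 pairs over 0.1, median 0.028). Those with different numbers correlated at -0.20 to 0.21 (4 of 36 pairs over 0.1, median -0.016). Arrays of equal number also shared a slide for replicates 1 to 3, so these values cannot settle whether the numbers pair the mice. The replicate block kept Kif2c for smoke. Dim probes such as Kif2c and Cdc25c limit what these arrays resolve.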
